A study of Mus musculus with 6 samples.

Results

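The genes of oxidative phosphorylation were examined in lung endothelial cells (EC) of C57BL/6N mice, purified by flow cytometry, in 3 libraries from infant mice in the second week of life and 3 from young adult mice. Members were all gene symbols of the deposited table that begin with Nduf, Uqcr, Cox4 to Cox8 or Atp5, together with Sdha, Sdhb, Sdhc and Sdhd. The rule used names and no measured values. It found 90 of 12623 genes, and all 90 passed the filter on low values. Of these, 78 encode structural subunits, 36 of complex I, 4 of complex II, 8 of complex III, 15 of complex IV and 15 of complex V. The other 12 carry a matching name but are no structural subunits. They are the complex I assembly factors Ndufaf1 to Ndufaf7, the paralogue Ndufa4l2, the supercomplex factor Cox7a2l, the genes Atp5s and Atp5sl and the pseudogene Atp5c1-ps. All mice were of 1 strain, and the labels give no treatment or engineered allele for either group. According to the study's methods, the sort kept viable cells positive for both CD31 and CD34 and dropped those with markers of leukocytes, lymphatic EC or erythroid cells. Values were RPKM (reads per kilobase of transcript and scaled to the mapped reads of the library), which are per length and can be compared between genes.

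Complexes I to IV form the electron transport chain of the inner mitochondrial membrane. They hand electrons from NADH and succinate to oxygen and pump protons, and complex V, the ATP synthase, uses the returning protons to make ATP. Most subunits are encoded in the nucleus and are studied here. The core of the chain is also encoded in part by mitochondrial DNA, and those transcripts were not analysed here. EC are known to draw much of their ATP from glycolysis, and their mitochondria are also known as sensors of oxygen and as a source of building blocks for growth. Some complex IV subunits exist as a common form and as a form restricted to certain tissues, such as Cox4i1 and Cox4i2, and the forms of a pair replace each other in the enzyme.

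The 5 genes shown next were chosen because they were higher in young adult EC and hold a searched motif in the 170 bases before their start. Sequences are from RefSeq, build GRCm38.p6, in the direction of transcription and ending at the base before the start. Capitals mark CCGGAAG or its reverse complement (the core of a site for ETS factors such as GABP), CATGCGC or its reverse complement (part of a site for NRF1) and AAGGTCA (part of a site for estrogen-related receptors).
Cox6a1 (chr5:115348959-115349128, minus strand): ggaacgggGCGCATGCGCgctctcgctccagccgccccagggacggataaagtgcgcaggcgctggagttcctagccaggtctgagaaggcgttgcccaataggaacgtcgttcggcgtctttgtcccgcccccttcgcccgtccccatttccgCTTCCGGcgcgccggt
Uqcr11 (chr10:80406822-80406991, minus strand): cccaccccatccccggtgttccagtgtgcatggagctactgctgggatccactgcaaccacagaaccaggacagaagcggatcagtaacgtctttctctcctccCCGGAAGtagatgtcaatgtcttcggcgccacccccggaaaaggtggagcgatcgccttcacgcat
Sdhb (chr4:140961101-140961270, plus strand): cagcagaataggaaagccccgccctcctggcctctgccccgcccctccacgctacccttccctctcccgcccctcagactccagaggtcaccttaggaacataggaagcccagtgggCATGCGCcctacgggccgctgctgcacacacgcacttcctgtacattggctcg
Atp5h (chr11:115419920-115420089, minus strand): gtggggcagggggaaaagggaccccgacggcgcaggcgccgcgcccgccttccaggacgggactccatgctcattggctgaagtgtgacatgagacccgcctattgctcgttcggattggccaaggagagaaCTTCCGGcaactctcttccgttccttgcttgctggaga
Ndufb4 (chr16:37654369-37654538, minus strand): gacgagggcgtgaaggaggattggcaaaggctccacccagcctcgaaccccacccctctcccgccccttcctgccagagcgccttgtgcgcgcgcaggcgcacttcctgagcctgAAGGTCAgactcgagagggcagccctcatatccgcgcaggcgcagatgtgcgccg
The next stretch belongs to Cox6b2, which was lower in young adult EC and holds none of the motifs in the same window. None of the remaining members higher in young adult EC holds a motif in its 170 bases either. The table of promoters gave no window for Cox4i2 and Ndufa4l2.
Cox6b2 (chr7:4753095-4753264, minus strand): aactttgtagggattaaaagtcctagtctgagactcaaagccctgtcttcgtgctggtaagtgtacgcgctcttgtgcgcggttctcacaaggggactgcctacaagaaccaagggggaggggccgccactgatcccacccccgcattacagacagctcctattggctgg

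Windows from 250 bases before to 50 bases after the start were given for 74 members and for 9447 of the genes tested, and 4 motifs were searched on both strands. CATGCGC (NRF1) was present for 15 members (20.3%) against 7.94% of the genes tested. AAGATGG (YY1) was present for 12 members (16.2%) against 8.5%, and AAGGTCA (estrogen-related receptors) for 8 (10.8%) against 3.75%. CCGGAAG (ETS) was present for 17 (23.0%), close to the 20.5% among the genes tested. CATGCGC overlaps its own reverse complement, so that in Cox6a1 both strands match within 1 run of capitals. A CATGCGC that spans the start of Uqcr11 and a CCGGAAG just behind the start of Sdhb lie outside the stretches shown. Among the 13 members higher in young adult EC, which all had a window, CATGCGC was found for 4 (Cox6a1, Ndufb8, Sdhb and Uqcr11), CCGGAAG for 4 (Atp5h, Cox6a1, Sdhb and Uqcr11), AAGATGG for 3 (Ndufb8, Ndufs6 and Ndufs7) and AAGGTCA for 1 (Ndufb4). Ndufs7, the member with the largest rise, held only AAGATGG, 25 bases behind the start that the table of promoters uses, which lies inside the gene as annotated. These matches are descriptions of letters in a window.

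Facts of the libraries that touch the results follow. RPKM summed over all genes to between 267437 and 338740 per library. The 5 globin genes took 11.03%, 3.41% and 23.5% of this sum in infant replicates 1 to 3, compared with 0.307% to 0.487% in the young adult libraries. Infant replicate 2 stood apart, with correlations of log2 values of 0.963 and 0.964 to the other infant libraries and of 0.949 to 0.963 to the young adult libraries. The endothelial markers Pecam1 (309.8 to 657.8 RPKM) and Cdh5 (213.8 to 316.9 RPKM) were abundant in all 6 libraries. Of 16 endothelial markers, 3 were higher and 1 was lower in young adult EC, and their summed level was 3821 to 5574 RPKM in infant against 5981 to 6491 in young adult libraries. Markers of other cells were lower in young adult EC. This held for 11 of 12 mural genes, 10 of 11 fibroblast genes, 7 of 7 erythroid genes, 4 of 10 leukocyte genes, 4 of 11 epithelial genes and 4 of 7 cardiac muscle genes, and 0 of these 58 genes were higher, with or without adjustment of p (limma). None of them was at 0 in all young adult libraries. The 11 epithelial markers summed to 6513.6 to 11381.9 RPKM in the infant libraries. In young adult replicates 1 to 3 they summed to 1818.7, 4824.7 and 8385.5 RPKM, in replicate 3 more than the endothelial markers. Among them, Sftpc was at 3733.9 to 4683.1 RPKM in infant and 1450.9 to 4883.1 RPKM in young adult libraries. In sorted bulk samples, fewer cells of a type and less RNA per cell cannot be told apart.

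As a class these genes were well expressed, and most did not change by much between infant and young adult lung EC. Their median level over the libraries was 54.8 RPKM against 6.25 RPKM for all genes tested, with a range from 1.3 RPKM (Cox7a1) to 210.7 RPKM (Cox4i1). The log2 fold change stayed within 0.81 in either direction for 87 of the 90. At an adjusted p under 0.05 (limma on log2(RPKM + 1), Benjamini-Hochberg over 12458 genes), 13 members were higher and 3 were lower in young adult EC. The background was 9.26% of all genes higher and 16.2% lower. For the members the shares were 14.4% and 3.33%. With a further minimum size of 0.81 (limma), 0 members were called higher, against a background of 3.33%, and 3 were called lower, against a background of 8.1%. Without adjustment, 32 members were higher and 4 were lower at p under 0.05, against 14.96% and 25.4% of all genes.

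The members' level and length bear on how these shares are read. Among 2462 genes with a mean of 20 to 200 RPKM, 17.1% were higher in young adult EC at an adjusted p under 0.05. Among 930 genes with transcripts under 1000 nt it was 13.7%. The members' 14.4% lies near both, so the number of members past the threshold does not by itself set them apart from genes of like level or length. Their median log2 fold change was 0.18, against -0.07 for all genes tested, 0.07 for genes of 20 to 200 RPKM and 0.03 for genes under 1000 nt. The members' median was 0.08 without infant replicate 1 and 0.07 without the globin genes. In the same fits the median of all genes was -0.07 and -0.16. The distance of the members' median from that of all genes was 0.25 as reported and 0.15 without infant replicate 1. It was 0.23 without the globin genes and 0.09 with quantile normalization. In 36 members the 3 young adult libraries all lay above the 3 infant libraries (background 16.4%), and in 3 members all below (background 27.1%). For genes of 20 to 200 RPKM the share that lay above was 29.5%, and for genes under 1000 nt it was 23.7%, against 40.0% for the members.

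The count of 13 changed when single libraries were left out. Leaving out an infant library gave 1 (replicate 1), 18 (replicate 2) or 9 (replicate 3), and leaving out a young adult library gave 2 (replicate 1), 2 (replicate 2) or 1 (replicate 3). In the same fits the share of all genes that were higher was 4.28%, 13% and 4.66% without infant replicates 1 to 3. It was 4.09%, 3.8% and 5.14% without young adult replicates 1 to 3. The number of calls thus fell for genes in general in 5 of the 6. Among the 90 members the share was below that of all genes without infant replicate 1 and without each young adult replicate. It was above that of all genes without infant replicates 2 and 3. Ndufs7 was higher in each of these 6 fits, and the other 12 of the 13 were higher in 1 to 3 of them. The count also moved with the scaling. It was 24 members higher and 3 lower when libraries were rescaled to the same sum (9.27% and 12.1% of all genes). Rescaling without the globin genes gave 10 higher and 5 lower (7.03% and 20.2% of all genes). With quantile normalization 11 of the 90 members were higher and 3 were lower, against 12.6% and 9.46% of all genes. The share of members higher was thus slightly below that of all genes under quantile normalization.

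**Figure D1:**
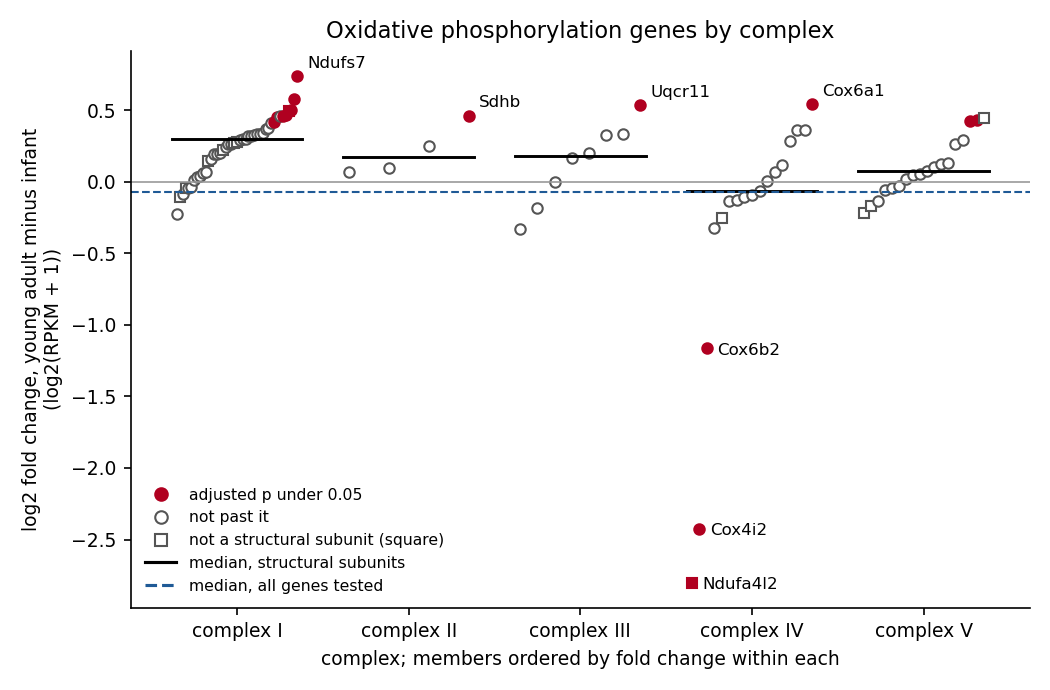
Log2 fold change (young adult minus infant, on log2(RPKM + 1)) of all 90 members by complex. Filled points passed an adjusted p under 0.05, squares are no structural subunits, black lines are medians of the structural subunits and the dashed line is the median of all genes tested (-0.07). Most complex I points lie above 0, and the 3 low points are Cox6b2, Cox4i2 and Ndufa4l2 in complex IV.

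Complex I, NADH dehydrogenase, had positive values in most of its subunits. Of its 36 structural subunits, 32 had a positive log2 fold change (27 to 34 under the 5 other scalings), against 5163 of 12458 genes tested. At an adjusted p under 0.05, 7 rose (19.4%) and 0 fell (limma). For all genes the share higher was 9.26%, and for genes of 20 to 200 RPKM it was 17.1%. The 7 became 1 without infant replicate 1 and without each young adult replicate. They became 10 without infant replicate 2 and 5 without infant replicate 3. At an unadjusted p under 0.05, 20 of the 36 were higher and 0 were lower, against 14.96% and 25.4% of all genes. The young adult libraries lay above all infant libraries for 22 of the 36 (61.1%), against 16.4% of all genes and 29.5% of genes of 20 to 200 RPKM. The median log2 fold change was 0.30, and it was positive under all 5 other scalings, between 0.19 and 0.39. Core subunits, which hold the flavin and the iron-sulfur clusters, and supernumerary subunits, which surround the core, had medians of 0.30 each. All 25 complex I subunits with transcripts under 1000 nt had a positive value, against 53.0% of all genes of that length. The 4 with a negative value were Ndufa10, Ndufs1, Ndufab1 and Ndufb5, and none of them passed the test.

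Ndufs7, a core subunit that carries the iron-sulfur cluster next to ubiquinone, had the largest rise of all members. Its gene lies on chromosome 10 from 80249105 to 80256794 (GRCm38.p6). Ndufs7 was measured at 49.2, 55.6 and 67.2 RPKM in the infant libraries (replicates 1 to 3) against 88.6, 94.2 and 104.6 RPKM in the young adult libraries. The groups were well apart, and the log2 fold change was 0.74 (SE 0.14, adjusted p = 0.010). Ndufa7, a supernumerary subunit, was at 68.5, 90.4 and 92.3 RPKM in infant against 120.4, 126.0 and 126.5 RPKM in young adult EC. Infant replicate 1 was the lowest, and the young adult values were nearly alike (0.58, SE 0.14, adjusted p = 0.022). Ndufa5 had 28.2, 36.7 and 37.4 RPKM in infant against 52.9, 42.8 and 50.2 RPKM in young adult EC, again without overlap (0.51, SE 0.14, adjusted p = 0.035).

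The other complex I subunits that rose were Ndufb4 (log2 fold change 0.47), Ndufb10 (0.46), Ndufb8 (0.45) and Ndufs6 (0.42). Ndufb4, Ndufb8 and Ndufb10 belong to the membrane arm, which pumps protons, and Ndufs6 to the arm that takes electrons from NADH. Ndufa3 was the most abundant complex I member, with a mean of 127.4 ± 27.7 RPKM (SD, n = 3) in infant and 144.0 ± 10.1 RPKM (SD, n = 3) in young adult EC, and the groups overlapped. At the other end, Ndufa10 was at 34.3, 36.3 and 34.7 RPKM in infant against 26.2, 28.2 and 35.8 RPKM in young adult EC. Young adult replicate 3 fell among the infant values (-0.23, SE 0.13, adjusted p = 0.21). Ndufs1, the largest core subunit, was level, with 27.8 ± 2.36 and 26.1 ± 1.46 RPKM (SD, n = 3 each, -0.09, adjusted p = 0.55).

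The assembly factors of complex I, which help to build it and do not stay in it, were less abundant than its subunits, with a median of 6.32 RPKM against 53.7 RPKM. Of the 7, only Ndufaf3 rose, from 13.4, 17.7 and 16.0 RPKM in infant to 22.4, 21.6 and 23.3 RPKM in young adult libraries (a log2 fold change of 0.50, SE 0.11, adjusted p = 0.020). Ndufaf1 had the largest fall among those with a mean of at least 5 RPKM, at -0.05 (adjusted p = 0.75), and its values overlapped. Of 36 tested assembly factors outside the naming rule, for all complexes, 3 were higher (Cox17, Surf1 and Coa3, all of complex IV) and 0 were lower (limma), with a median log2 fold change of 0.08. The share higher was 8.33%, against 9.26% of all genes. At an unadjusted p under 0.05, 7 of the 36 were higher and 2 were lower.

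Complex II, succinate dehydrogenase, links the chain with the tricarboxylic acid cycle. All 4 subunits had positive values, with a median of 0.18 (0.07 with 2 of 4 positive after rescaling without the globin genes, and 0.09 with quantile normalization), and only Sdhb, the iron-sulfur subunit, passed the test. Sdhb was at 90.9, 101.6 and 103.3 RPKM in infant against 130.3, 129.0 and 149.8 RPKM in young adult libraries (a log2 fold change of 0.46, SE 0.12, adjusted p = 0.026). Sdha, the flavoprotein that oxidises succinate, had 72.4, 76.9 and 74.8 RPKM in infant against 87.3, 90.5 and 89.7 RPKM in young adult EC. Its groups did not overlap, yet the adjusted p was 0.083 (0.25, SE 0.09). The membrane anchors Sdhc (0.10, adjusted p = 0.47) and Sdhd (0.07, adjusted p = 0.72) overlapped between the ages.

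Complex III, which passes electrons from ubiquinol to cytochrome c, had a median of 0.18 over 8 subunits. Of the 8, 1 rose (12.5%, against 9.26% of all genes). The median was 0.08 in each of the fits without infant replicate 1, without the globin genes and with quantile normalization. Its distance from the median of all genes was 0.25 as reported, and 0.15, 0.23 and 0.03 in these fits. Uqcr11, a small supernumerary subunit, was at 62.9, 59.6 and 84.7 RPKM in infant against 102.0, 100 and 95.7 RPKM in young adult libraries (a log2 fold change of 0.53, SE 0.15, adjusted p = 0.034). Uqcr10 (0.33, adjusted p = 0.14) and Uqcrq (0.32, adjusted p = 0.17) were the next. The highest level was that of Uqcrb, with 124.3 ± 18.4 RPKM in infant against 138.5 ± 7.25 RPKM in young adult EC (SD, n = 3 each). Of the core subunits, Uqcrc1 was level (-0.00, SE 0.11, adjusted p = 0.99). Uqcrfs1, the Rieske iron-sulfur protein, was at 22.8, 24.0 and 19.7 RPKM in infant against 15, 17.4 and 20.2 RPKM in young adult EC, with young adult replicate 3 above infant replicate 3. Its value of -0.33 (SE 0.13, adjusted p = 0.10) passed the test in only 1 of the alternatives, when libraries were rescaled without the globin genes (-0.43). Uqcrh was at -0.18 (adjusted p = 0.33).

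Complex IV, cytochrome c oxidase, held the 3 members that fell, all of them tissue forms or paralogues, beside common subunits with small changes. Its 15 structural subunits had a median of -0.06, which turned positive when libraries were rescaled to the same sum (0.03), by the median ratio (0.01) or by quantiles (0.01). It was -0.17 without the globin genes. Leaving out single libraries moved it from -0.15 (without infant replicate 1) to 0.07 (without infant replicate 3). The median of all genes moved as well. Relative to it, that of complex IV was 0.01 as reported and between -0.04 and 0.02 under the 5 other scalings. It was -0.08 without infant replicate 1 and 0.15 without infant replicate 3 on this measure. Of the 15, 1 rose (6.67%) and 2 fell (13.3%), against 9.26% and 16.2% of all genes. Among the 11 common subunits the median was 0.07.

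Ndufa4l2 is a paralogue of the complex IV subunit Ndufa4, known as a target of hypoxia-inducible factors. Its gene lies on chromosome 10 from 127509274 to 127517154. Ndufa4l2 was at 16.9, 17.5 and 24.1 RPKM in infant against 1.4, 2.2 and 2.2 RPKM in young adult EC. Every infant library lay far above every young adult library, and the log2 fold change was -2.80 (SE 0.17, adjusted p = 0.00033). Ndufa4 itself went the other way, with 118.8, 138.4 and 146.7 RPKM in infant against 175.9, 166.9 and 175.6 RPKM in young adult EC. These groups did not overlap either, and the value of 0.36 (SE 0.12) had an adjusted p of 0.063, which was under 0.05 with 3 of the 5 other scalings. The share of Ndufa4l2 in the summed RPKM of the pair was 12.6 ± 1.45% in infant against 1.11 ± 0.279% in young adult EC (SD, n = 3 each).

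Cox4i2 encodes a form of subunit 4 that is known to be abundant in the lung and tied to oxygen sensing. Its gene lies on chromosome 2 from 152753916 to 152765039. Cox4i2 was at 25.1, 38.4 and 55.9 RPKM in infant against 4.9, 9.6 and 5.0 RPKM in young adult EC. The groups were apart in spite of the spread among infant libraries (log2 fold change -2.43, SE 0.32, adjusted p = 0.0031). Cox4i1, the common form and the most abundant of all members, was at 198.1, 203.4 and 251.8 RPKM in infant against 196.7, 195.4 and 218.5 RPKM in young adult EC (-0.09, SE 0.14, adjusted p = 0.66). Cox4i2 made up 11.2%, 15.9% and 18.2% of the pair in the infant libraries against 2.43%, 4.68% and 2.24% in young adult libraries, so that the common form took most of the RPKM at both ages. This share is a ratio within a library and is not changed by scaling a library with 1 factor.

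Cox6b2, a form of subunit 6b known from testis, was low at both ages. It was at 2.4, 1.9 and 4.7 RPKM in infant against 0.4, 0.7 and 1.1 RPKM in young adult libraries (a log2 fold change of -1.16, SE 0.27, adjusted p = 0.020). This call was lost when infant replicate 1 or young adult replicate 1 or 2 was left out, and the values lie near the rounding step of 0.1 RPKM. Cox6b1, the common form, was at 91.9 ± 18.0 RPKM in infant against 110.8 ± 5.10 RPKM in young adult EC (SD, n = 3 each, 0.28, adjusted p = 0.21). The share of Cox6b2 in the pair was 3.1 ± 1.06% in infant against 0.653 ± 0.29% in young adult EC (SD, n = 3 each).

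**Figure D2:**
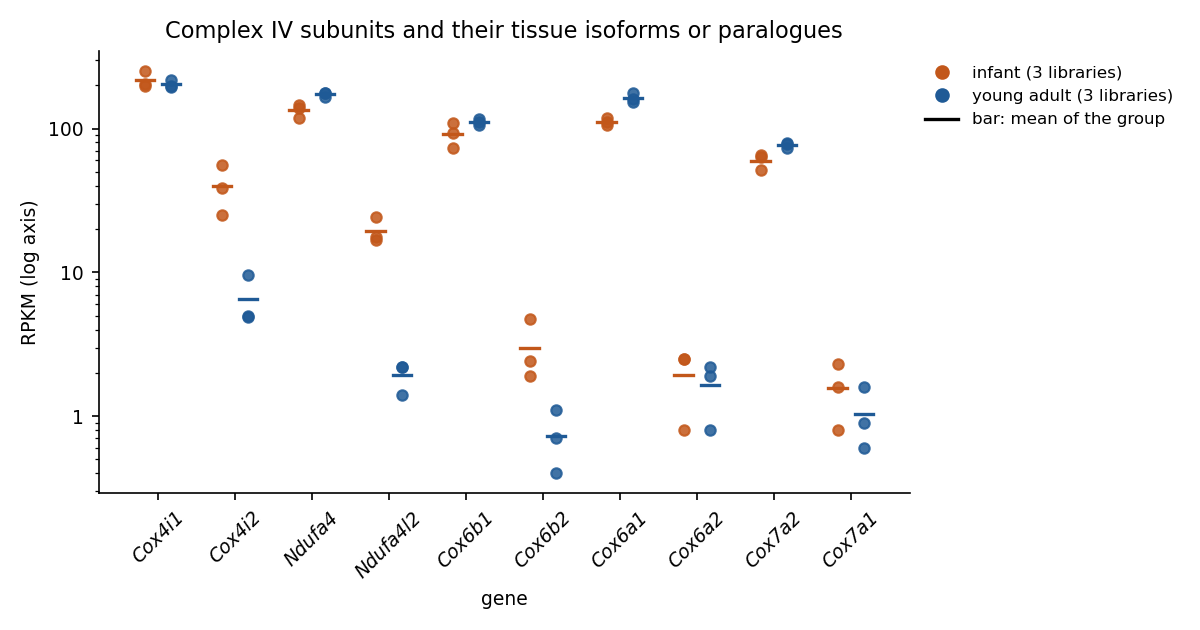
RPKM (log axis) of complex IV subunits and of their tissue forms or paralogues in each of the 3 infant and 3 young adult libraries, with bars at the group means. Cox4i2, Ndufa4l2 and Cox6b2 lie lower in all young adult libraries, while Cox4i1 overlaps between the ages and Ndufa4 lies higher in young adult EC.

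The heart and muscle forms Cox6a2 and Cox7a1 were near 1 to 2 RPKM at both ages. Cox6a2 was at 0.8, 2.5 and 2.5 RPKM in infant against 0.8, 2.2 and 1.9 RPKM in young adult EC (-0.13, adjusted p = 0.78). Cox7a1 was at 0.8, 2.3 and 1.6 RPKM in infant against 0.6, 0.9 and 1.6 RPKM in young adult EC (-0.32, adjusted p = 0.39). Both overlapped between the ages. Cox6a1, the common partner of Cox6a2, was the one complex IV subunit that rose. It was at 105.3, 111.1 and 118.8 RPKM in infant against 153.4, 159.4 and 176.8 RPKM in young adult EC (0.54, SE 0.11, adjusted p = 0.015). Its gene lies on chromosome 5 from 115345652 to 115348958.

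Of the remaining complex IV genes, Cox7a2, the partner of Cox7a1, did not overlap between the ages (59.8 ± 7.42 and 76.7 ± 3.54 RPKM, SD, n = 3 each, 0.36, adjusted p = 0.061). Cox7a2l, which joins complexes III and IV into supercomplexes, was at 47.6, 57.2 and 60.7 RPKM in infant against 45.2, 44.1 and 48.6 RPKM in young adult EC. Its value of -0.25 (adjusted p = 0.15) passed the test in only 1 of the alternatives, when libraries were rescaled without the globin genes (-0.36). Cox7b (0.01, adjusted p = 0.97) and Cox8a (-0.12, adjusted p = 0.48) were level.

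Markers of mural cells, the pericytes and smooth muscle cells around vessels, moved in the same direction as Cox4i2 and Ndufa4l2, which are both also known from pericytes. Of 12 mural markers 11 fell and all 12 were lower without overlap. Their summed level was 252.6, 83.0 and 257.9 RPKM in the infant libraries against 13.3, 16.8 and 19.4 RPKM in the young adult libraries, and 5 of them were under 1 RPKM in all young adult libraries. Among the infant libraries, Cox4i2 and Ndufa4l2 were lowest in replicate 1 and highest in replicate 3. The mural sum was lowest in replicate 2 and highest in replicate 3. Replicate 2 was the lowest infant library for 10 of the 12 markers. For the other 2, replicate 1 was the lowest. These were Notch3 (1.1, 1.2 and 1.6 RPKM in infant replicates 1 to 3) and Higd1b (9.7, 11.4 and 15.8 RPKM). The part of mural cells in the lower level of Cox4i2, Ndufa4l2 and Cox6b2 was not tested. Cardiac muscle markers, which could bring along Cox6a2 and Cox7a1, summed to 61.9, 91.7 and 117.4 RPKM in infant replicates 1 to 3. In young adult replicates 1 to 3 they summed to 23.1, 51.5 and 20.7 RPKM. Like Cox4i2, this sum was lowest in replicate 1 and highest in replicate 3 among the infant libraries. Among the young adult libraries both were highest in replicate 2. The part of cardiac muscle cells in these levels was not tested.

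Complex V, the ATP synthase, changed little. The median log2 fold change of its 15 structural subunits was 0.08, and it was negative after quantile normalization and after rescaling without the globin genes (-0.03 each). It was 0.02 without infant replicate 1 and 0.15 without infant replicate 3. Of the 15, 2 rose (13.3%, against 9.26% of all genes and 17.1% of genes of 20 to 200 RPKM). Likewise, 2 lay higher in all young adult libraries (13.3%, against 16.4% and 29.5%). The 5 subunits of the catalytic head and its central shaft had a median of -0.03. Atp5b, the catalytic beta subunit, was at 135.8, 151.9 and 139.9 RPKM in infant against 119.8, 137.3 and 156.2 RPKM in young adult EC (-0.06, SE 0.13, adjusted p = 0.78). Atp5a1 was likewise level (-0.04, adjusted p = 0.83). Atp5c1, the central shaft and the most abundant member of complex V, had 154.0 ± 13.7 and 162.2 ± 2.57 RPKM (SD, n = 3 each).

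In the stalk and the membrane part, Atp5h, which holds the head in place, rose from 63.1, 79.2 and 80.2 RPKM in infant to 95.8, 94.4 and 109.4 RPKM in young adult libraries (a log2 fold change of 0.43, SE 0.13, adjusted p = 0.047). Atp5j2 was next among the membrane subunits, at 0.29 (adjusted p = 0.16). Atp5g1, Atp5g2 and Atp5g3 encode the same mature ring protein with different import signals, so their levels can be read as shares of 1 product. Atp5g1 rose from 19.4, 21.3 and 25.7 RPKM to 29.0, 28.3 and 32.3 RPKM (0.42, SE 0.12, adjusted p = 0.041). Atp5g2 (0.12, adjusted p = 0.48) and Atp5g3 (-0.13, adjusted p = 0.44) did not pass the test. The share of Atp5g1 in the 3 genes was 15.8 ± 0.801% in infant against 20.5 ± 0.48% in young adult EC, that of Atp5g3 was 49.7 ± 2.24% and 43.4 ± 1.71% (SD, n = 3 each), and neither share overlapped between the ages.

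**Figure D3:**
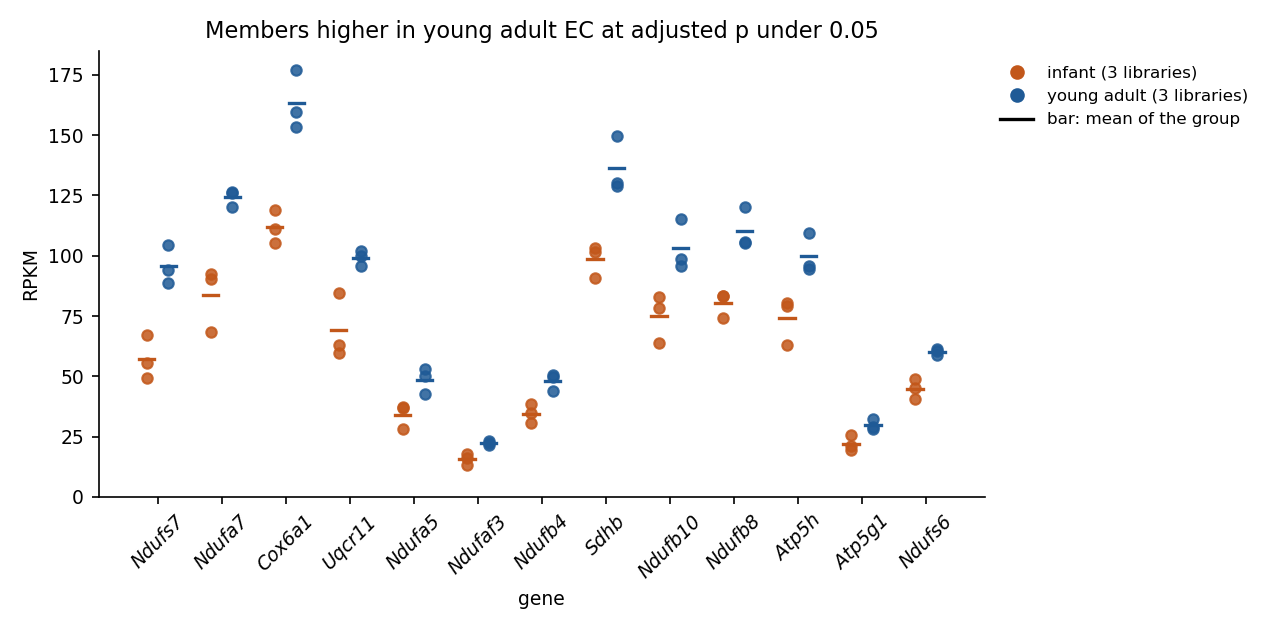
RPKM of the 13 members that were higher in young adult EC at an adjusted p under 0.05, in each of the 3 infant and 3 young adult libraries, with bars at the group means and genes ordered by fold change. The groups do not overlap for any of the 13, from Ndufs7 (57.3 to 95.8 RPKM on average) to Ndufs6 (44.8 to 60.1 RPKM).

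Summed over subunits, complex I reached 1554.8, 1844.2 and 1966.9 RPKM in the infant libraries against 2168.9, 2141.7 and 2342.0 RPKM at the later age. The ratio of the mean sums was 1.24. For complex II the ratio was 1.21, for complex III 1.10, and for complexes IV and V it was 1.07 each. Since an abundant transcript lowers the RPKM of all others in its library, the sums were also taken as a share of all RPKM without globins. Complex I then made up 0.635%, 0.677% and 0.759% of the infant libraries and 0.813%, 0.779% and 0.797% of the young adult libraries. Complex II made up 0.102% to 0.109% and 0.118% to 0.119%. For both complexes the ages still did not overlap. The shares of complexes III, IV and V overlapped, with infant replicate 3, the library with the most globin RNA, as the highest of all 6 in each.

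**Figure D4:**
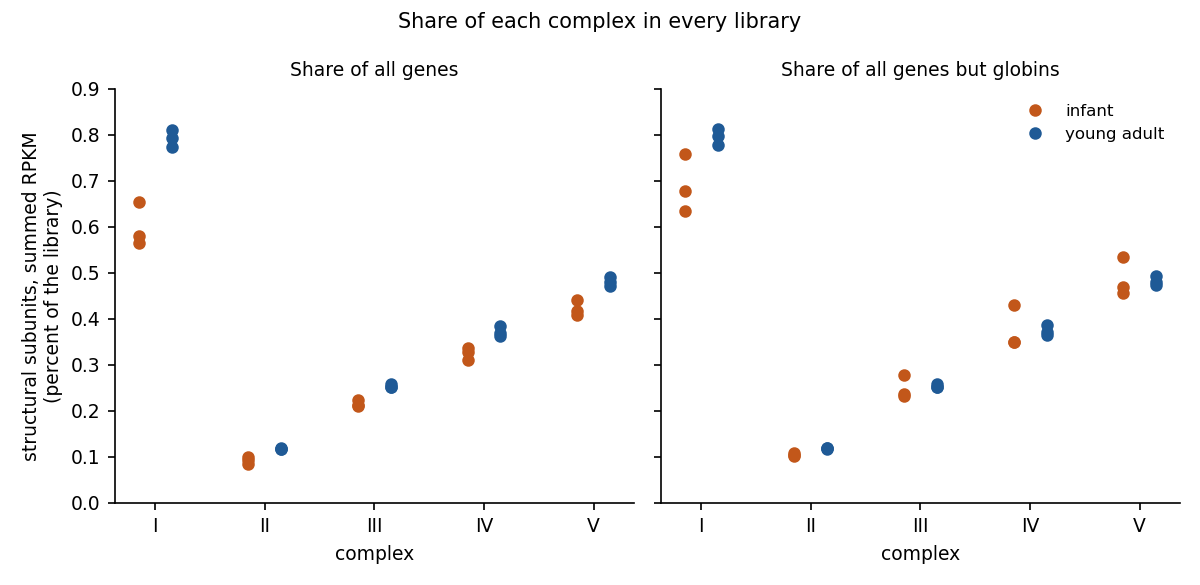
Summed RPKM of the structural subunits of each complex as a percent of the summed RPKM of the library, over all genes (left) and over all genes but the 5 globin genes (right), 1 point per library. On the left all 5 complexes lie higher in the young adult libraries, and on the right only complexes I and II do so without overlap.

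Other mitochondrial genes were read from lists, each by the number of tested genes past an adjusted p under 0.05 (limma) and its median log2 fold change. For all genes the median was -0.07, with 9.26% higher and 16.2% lower. Of 76 mitochondrial ribosomal protein genes, 17 were higher (22.4%) and 0 were lower, with a median of 0.19. Their products translate the subunits encoded in mitochondria. At an unadjusted p under 0.05, 28 of the 76 were higher and 1 was lower. Of 22 genes of mitochondrial protein import, 0 passed in either direction (4 and 0 at an unadjusted p under 0.05, limma), with a median of 0.12. Of 24 genes of the tricarboxylic acid cycle and its entry, 1 was higher (4.17%, Idh3b) and 3 were lower (12.5%, Pdha1, Pdk2 and Pdk4). Their median was -0.05. Of 15 carriers and uncoupling proteins, 1 was lower (Slc25a13, a carrier of aspartate and glutamate, from 1.93 ± 0.808 to 0.467 ± 0.0577 RPKM, SD, n = 3 each). Of 13 genes of ubiquinone synthesis, 1 was lower (Adck3). Of 7 oxidative phosphorylation genes with other names, 1 was higher (Higd2a, adjusted p = 0.042), and this call was lost in each of the 6 fits that left out 1 library. Over all mitochondrial lists, with the assembly factors above and the regulators below, 31 genes passed the adjusted p. Of these, 4 passed in all 6 of these fits, 23 in 1 to 3 of them and 3 in none. Cytochrome c (Cycs) and Cyc1, the cytochrome subunit of complex III, did not pass the test, and Atpif1, the inhibitor of the ATP synthase, was at -0.45 with an adjusted p of 0.060.

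Among 17 tested regulators of mitochondrial gene expression, 2 were higher and 2 were lower (11.8% each, against 9.26% and 16.2% of all genes). Slirp, which stabilises mitochondrial messenger RNA, rose from 25.6, 27.8 and 31.2 RPKM to 40.4, 37.7 and 42.5 RPKM (log2 fold change 0.50, adjusted p = 0.016), and the mitochondrial DNA polymerase Polg rose (0.39, adjusted p = 0.037). Myc, known to drive growth and mitochondrial genes, fell from 5.5, 3.6 and 5.0 RPKM in infant to 1.8, 1.3 and 1.9 RPKM in young adult EC (-1.09, adjusted p = 0.0047). Gabpa, the ETS subunit of GABP, was lower, with 8.4 ± 1.31 and 6.03 ± 0.416 RPKM (SD, n = 3 each, -0.41, adjusted p = 0.048). Nrf1 (0.16, adjusted p = 0.26) and Yy1 (-0.15, adjusted p = 0.30), whose motifs were searched above, did not pass the test. For the rest, the log2 fold change was 0.36 for Pprc1, 0.16 for Tfb1m, 0.06 for Lrpprc, -0.05 for Polrmt, -0.09 for Ssbp1, -0.11 for both Tfam and Chchd2, -0.14 for Polg2, -0.18 for Gabpb1, -0.20 for Tfb2m and -0.32 for Peo1. None of these 11 passed the test.

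**Figure D5:**
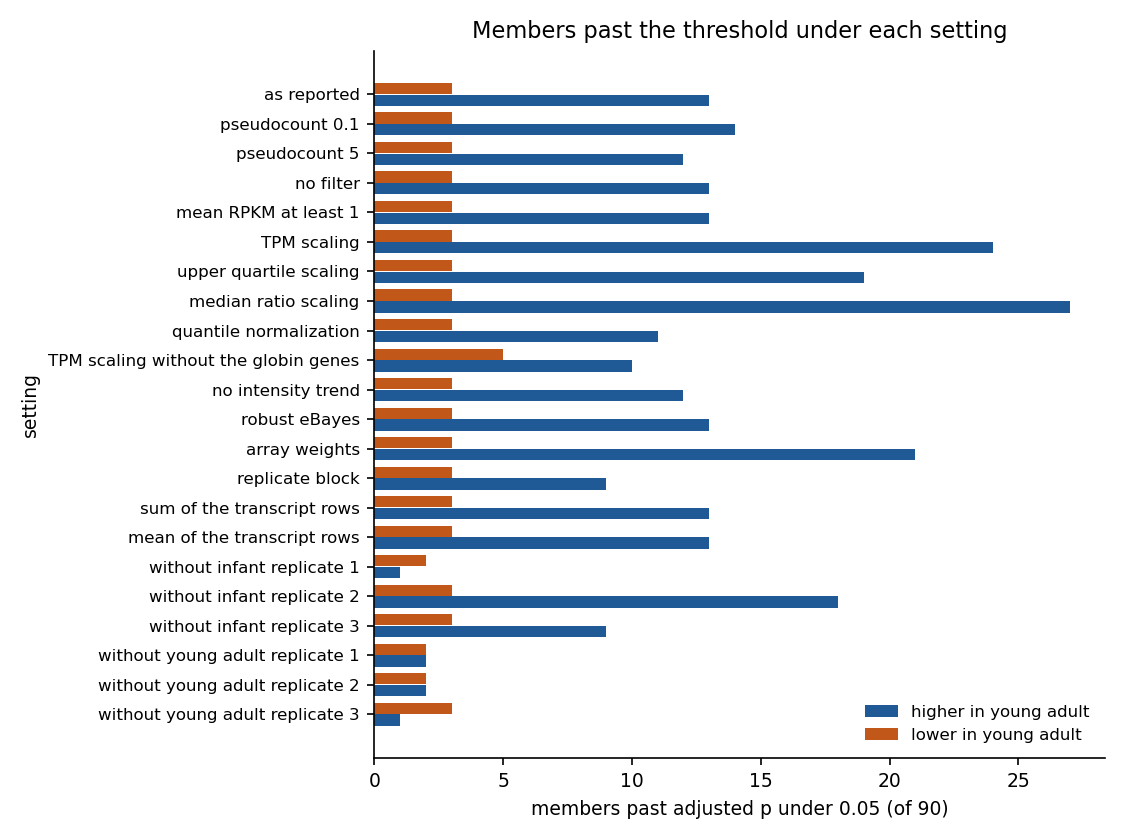
Number of the 90 members higher (blue) or lower (orange) in young adult EC at an adjusted p under 0.05 as reported and under each alternative setting. The number higher ranges from 1 (without infant replicate 1 or without young adult replicate 3) to 27 (median ratio scaling), and the number lower from 2 to 5. Over all genes (not drawn) the share higher ranges from 3.8% (without young adult replicate 2) to 13.2% (array weights).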

How the data were processed

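RNA of sorted lung EC was amplified with the SMARTer Ultra Low kit, and the authors aligned paired reads to mm10 with STAR (version not given in the sources used here). The deposited values were the authors' RPKM on RefSeq transcripts, rounded to 1 decimal (17241 rows, 6 columns). The file holds no counts and the study's methods give only an average coverage, so the depth of each library is not known. Of several rows of a gene the one with the highest mean was kept (7 members had more than 1). In 24 rows, of 11 genes, the symbol had turned into a date and was restored from the accession. limma 3.58.1 in R 4.3.3 was run on log2(RPKM + 1) with an intensity trend and age as the only term, over the 12458 genes that reached 1 RPKM in 1 library or more, with Benjamini-Hochberg adjustment. The pseudocount of 1 understates changes of low genes. A call needed an adjusted p under 0.05 and a log2 fold change over 0.81 in size. The series' design text calls the replicates biological and independent. The script was tested on simulated data.

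Named were members that were called, in each complex the 3 largest rises and falls among members with a mean of at least 5 RPKM and the most abundant one, complex II and isoform pairs. Of other lists, called genes and all regulators were named. Further genes with an adjusted p under 0.05, and Cycs, Cyc1 and Atpif1, were named after their values were seen. Members and lists were chosen with earlier results of these data known. Alternatives were other pseudocounts, filters, scalings, limma settings and transcript rows, a replicate block and leaving out each library. Promoters and positions are from RefSeq (GRCm38.p6, the coordinates of mm10), which held 89 members, and transcript lengths from GENCODE.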

Additional observations from a re-analysis of the deposited data

How the results depend on the processing

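The number of members higher at an adjusted p under 0.05, reported as 13, moved with the setting. It was 24 with rescaling to the same sum, 27 with median ratio scaling and 21 with array weights. Over all genes the share higher in these fits was 9.27%, 12.2% and 13.2%, against 9.26% as reported. Leaving out single libraries gave 1 to 18 members higher. The number lower, reported as 3, was 5 with rescaling without the globin genes and 2 to 3 when single libraries were left out. With the minimum log2 fold change of 0.81, the number higher went from 0 to 1 (Ndufs7) under rescaling to the same sum and under median ratio scaling, and lay between 0 and 1 when single libraries were left out. The median log2 fold change of the members stayed positive under all 21 alternatives, between 0.08 and 0.24 when single libraries were left out and 0.07 without the globin genes. Quantile normalization moved the median of all genes from -0.07 to 0.04, and relative to it the members' median was 0.09, against 0.25 as reported. Rescaling without the globin genes moved the median of all genes to -0.16, and relative to it the members' median was 0.23. Without the 12 members that are no structural subunits, 12 were higher and 2 were lower. For 44 named members under 21 alternatives, 839 of 924 values stayed on their side of the threshold, 70 lost significance and 15 gained it. In 32 the sign changed without a call in either fit, and no called value changed sign. The cause of these changes was not tested.

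The replicate numbers did not pair the libraries, with correlations of same-numbered deviations of 0.028, -0.11 and -0.021. With replicate number as a block, 9 members were higher and 3 were lower, while the shares over all genes were 6.86% and 12.1%. All 9 were among the 13. The depth of each library is not known, and the smallest rise past the threshold was 0.42 on the log2 scale.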
